A study of Rattus norvegicus with 6 samples.

Results

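The 9 genes described here encode signals that the liver secretes into blood, together with a coreceptor for Fgf21: Fgf21, Klb, Gdf15, Adm2, Angptl4, Angptl8, Inhbe, Lect2 and Agt. They were picked by symbol, through the RefSeq accession that the array gives for each probe, and 8 of the 9 had a probe, out of 15645 gene symbols named on the array. Klb, the coreceptor through which Fgf21 binds its receptor, was matched by no accession and is not analysed here. Liver total RNA of 6 male Sprague-Dawley rats, Crl:CD(SD), bought at 5 weeks of age, was hybridised to 1-colour Agilent arrays, 1 animal per array. Controls (n = 3) were dosed with corn oil, the vehicle. Treated rats (n = 3) were dosed at 300 mg/kg/day with the 4,4'-thiobis derivative of 6-tert-butyl-m-cresol, abbreviated TBBC here, an antioxidant in which sulfur joins a pair of cresol units. The labels give 28 days in the series text and 9 weeks in the treatment protocol for the length of the study. The comparison asks how hepatic RNA levels differ between dosed and control animals.

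Hepatokines are proteins by which the liver signals to other organs. Fgf21 is released in fasting, protein restriction and cellular stress and acts through a receptor paired with Klb. Its gene is a known target of the fasting receptor PPAR alpha and of ATF4, the transcription factor of the integrated stress response. Gdf15, Adm2 and Inhbe are also known to respond to cellular stress. Angptl4 and Angptl8 are secreted inhibitors in the control of lipoprotein lipase, Angptl4 being linked to fasting and Angptl8 to feeding. Agt is the precursor of the angiotensins, and Lect2 is a hepatocyte-secreted chemotactic factor.

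The stretches before the start sites of 4 members are shown, picked for holding the ATF4 core letters or for a fall with TBBC. Fgf21 and Angptl8 had both, Inhbe held the letters but did not pass, and Adm2 fell without them. Counts among these 4 follow from that choice and do not link the letters to the fall. The sequences are those of RefSeq on the build GRCr8, 250 bases up to the base before the annotated start, on the strand of the gene. Capitals mark matches to the core of the ATF4 response element, TGATGNAA, read on both strands.
Fgf21, chr1:105221377-105221626, minus strand: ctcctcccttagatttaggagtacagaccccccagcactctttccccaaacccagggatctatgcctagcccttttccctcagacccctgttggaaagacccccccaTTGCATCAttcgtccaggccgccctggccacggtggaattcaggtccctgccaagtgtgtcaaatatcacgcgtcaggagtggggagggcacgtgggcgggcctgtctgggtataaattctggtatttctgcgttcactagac
Angptl8, chr8:28652305-28652554, plus strand: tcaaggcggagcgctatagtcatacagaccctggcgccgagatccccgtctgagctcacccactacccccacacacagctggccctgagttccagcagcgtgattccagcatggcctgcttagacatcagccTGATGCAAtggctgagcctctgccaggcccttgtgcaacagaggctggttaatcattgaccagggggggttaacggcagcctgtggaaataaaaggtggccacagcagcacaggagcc
Inhbe, chr7:65064520-65064769, minus strand: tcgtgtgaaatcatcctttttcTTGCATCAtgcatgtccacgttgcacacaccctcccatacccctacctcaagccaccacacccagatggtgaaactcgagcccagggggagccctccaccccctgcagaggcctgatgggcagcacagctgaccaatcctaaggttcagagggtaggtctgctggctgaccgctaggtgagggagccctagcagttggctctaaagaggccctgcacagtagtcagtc
Adm2, chr7:122272558-122272807, plus strand: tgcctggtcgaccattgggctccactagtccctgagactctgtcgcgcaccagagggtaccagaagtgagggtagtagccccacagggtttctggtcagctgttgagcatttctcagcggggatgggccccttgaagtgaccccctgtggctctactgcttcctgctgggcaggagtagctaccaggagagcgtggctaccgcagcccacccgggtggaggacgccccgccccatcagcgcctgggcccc

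Promoter sequence was found for 8 of the 9 members, Klb included, and for 7 of the 8 measured. The ATF4 core occurred in the windows of 3 members: Fgf21, where the match began 143 bases before the start, Inhbe, where it began 228 bases before it, and Angptl8, where it began 118 bases before it. The same 8 letters filled the match in all 3 genes, TGATGCAA, lying on the opposite strand in Fgf21 and Inhbe. Of 33360 distinct promoter windows of this length, 3.41% held the core. No member's window held the cyclic AMP response element TGACGTCA, present in 1.59% of windows, or the PPAR direct repeat, AGGTCA written 2 times with 1 base between, present in 0.0510%; both strands were read for each motif. A match is a description of letters and not of binding. Both of these exact sequences are rare in windows of this length, the PPAR repeat above all, so their absence from the members' windows tells little.

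With TBBC, livers held much less RNA for the hormone Fgf21 and for the vascular peptide Adm2, and less for Angptl8. Of the 8 measured members 3 fell, 0 rose and 5 did not pass the test at an adjusted p under 0.05 (limma with Benjamini-Hochberg adjustment over all features). Over all 29326 features 3.08% passed, with 1.4% lower and 1.68% higher under TBBC. These were 492 higher and 410 lower features, against 746 and 306 with median centring and 597 and 143 with spike-in scaling. Over the 11235 features with a gene name the shares were 3.17%, 1.29% and 1.88%. Values are log2 of the processed signal relative to the 75th percentile of the same array, and differences are TBBC minus vehicle with the moderated standard error. The median difference was -0.66 over the 8 members and -0.06 over all features. Every member was well above background on all 6 arrays by the probe that stands for it. The groups did not overlap in 4 members, with Fgf21, Adm2 and Angptl8 lower and Gdf15 higher with TBBC. Over all features 18.8% did not overlap and were lower, and 12.3% did not overlap and were higher (15.7% and 15.5% of named features), so the count of such members is read against a high background. The arrays are few, so the precision is limited by their number. Each group lay on 1 slide and was scanned in 1 run, so slide and scan cannot be told apart from treatment.

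**Figure D1:**
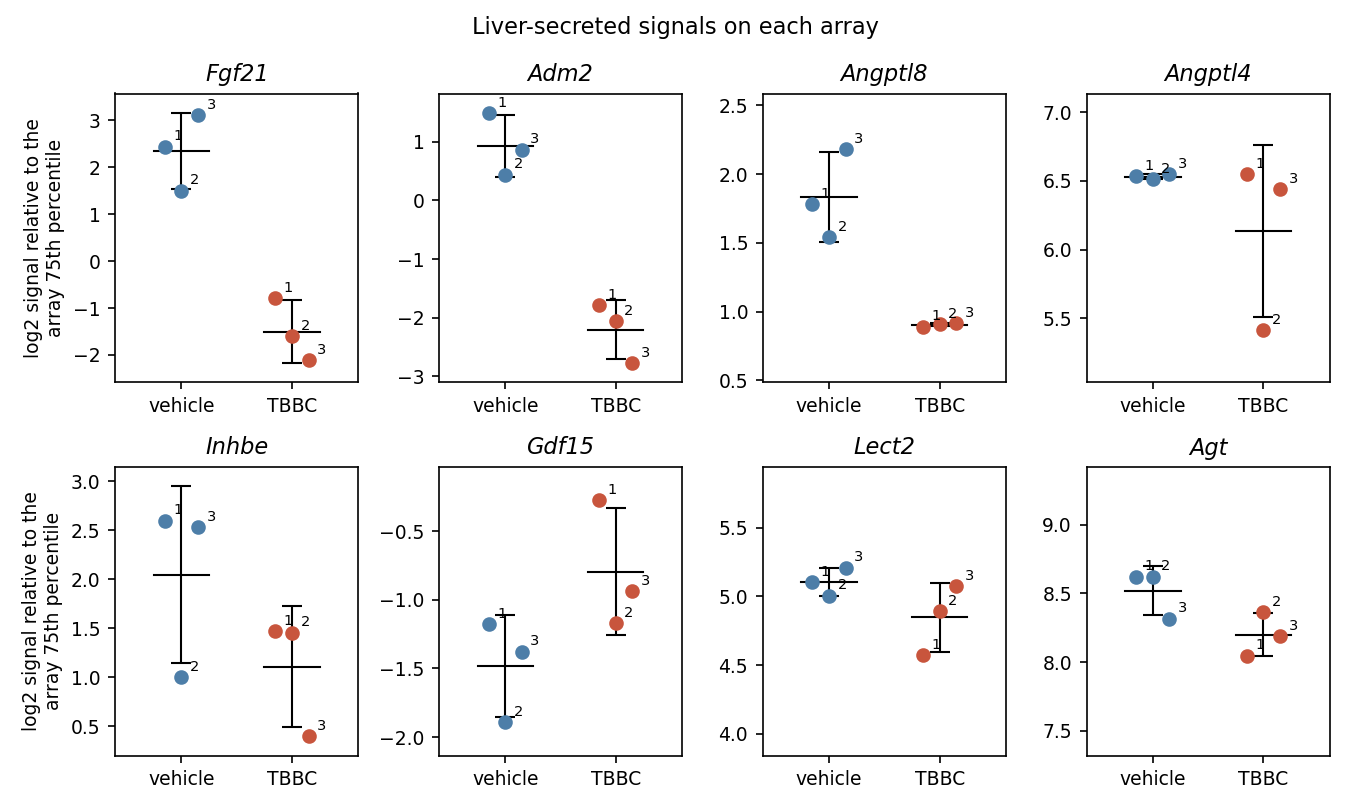
Log2 signal relative to the array's 75th percentile (y axis, scaled for each gene) of the 8 measured members on the 3 vehicle and 3 TBBC arrays; numbers are replicates, bars the mean and whiskers the SD. Fgf21, Adm2 and Angptl8 are lower and Gdf15 is higher on every TBBC array than on any vehicle array, and TBBC replicate 2 stands below the other arrays in Angptl4.

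Fgf21 showed the largest difference among the members. The arrays of the vehicle rats, in order of replicate, read 2.44, 1.50 and 3.11 in log2 signal, and those of the TBBC rats read -0.79, -1.60 and -2.11. The lowest vehicle array thus stood more than 2 log2 units above the highest TBBC array. Fgf21 fell by 3.85 ± 0.48 log2 units (SE, with n = 3 in each group), a 14.5-fold lower signal with a 95% interval of 6.52 to 32.1-fold (limma adjusted p = 0.0193). Against the geometric mean of the vehicle arrays, the 3 TBBC livers held 11.3%, 6.45% and 4.53% of the Fgf21 signal. Vehicle livers also varied among themselves, from 55.5% to 169% of that mean. The call was lost without vehicle replicate 1 (adjusted p = 0.0759), TBBC replicate 2 (adjusted p = 0.0784) or TBBC replicate 3 (adjusted p = 0.0523). Over all 18 other settings its log2 difference ran from -4.28 to -3.45. Only 1 probe stands for Fgf21 on the array.

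Adm2, also called intermedin, is a vasoactive peptide of the calcitonin and adrenomedullin family. In order of replicate, the vehicle arrays read 1.50, 0.44 and 0.87 in log2 signal, and those of the TBBC rats read -1.79, -2.06 and -2.77. As with Fgf21, the groups were far apart, TBBC replicate 1 was the highest and TBBC replicate 3 the lowest treated array, and vehicle replicate 2 was the lowest control. Adm2 fell by 3.14 ± 0.34, 8.81-fold with a 95% interval of 4.98 to 15.6-fold (limma adjusted p = 0.0132). The second probe of Adm2 entered the test only through the vehicle group, being well above background on 5 of 6 arrays. It read -1.43, -2.19 and -1.96 on the vehicle arrays and -4.51, -5.06 and -5.76 under TBBC, where replicate 3 was not well above background, so its log2 difference of -3.25 is not an exact measure. Without TBBC replicate 2 the call was lost (adjusted p = 0.0638). Over all 18 other settings the log2 difference ran from -3.39 to -2.77.

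The relatives and receptors of Adm2 did not pass. Of 10 listed genes of the calcitonin and adrenomedullin family and its receptors, 7 were tested, 0 rose and 0 fell, with a median of -0.17. The abundant members were Ramp1, an accessory protein of the receptor, with a log2 difference of 0.06 ± 0.13, and Calca, which encodes calcitonin and a related peptide, with one of -0.27 ± 0.12.

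Angptl8, an insulin-responsive protein in the inhibition of lipoprotein lipase, was the third member that fell. By replicate, the controls read 1.78, 1.54 and 2.18 in log2 signal, and the TBBC rats read 0.89, 0.91 and 0.92. The treated arrays were nearly equal (SD 0.01 against 0.33 in the vehicle group) and all lay below the lowest control. Angptl8 fell by 0.93 ± 0.17, 1.90-fold with a 95% interval of 1.43 to 2.54-fold (limma adjusted p = 0.0469). This call lay close to the threshold: it was lost when any of the 6 arrays was left out (adjusted p 0.0593 to 0.140), with median centring (0.0649), with spike-in scaling (0.202) and with no filter on dim probes (0.112).

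Angptl4, the fasting-induced inhibitor of lipoprotein lipase and, like Fgf21, a PPAR alpha target, did not pass. The arrays of the vehicle rats, in order of replicate, read 6.54, 6.51 and 6.55 in log2 signal, and those of the TBBC rats read 6.55, 5.41 and 6.44. A single treated array, TBBC replicate 2, was lower, at 46.1% of the vehicle geometric mean, and its second probe was also lowest there (2.56 against 3.28 to 3.71 on the other arrays). The log2 difference was -0.40 ± 0.30 (adjusted p = 0.449; 95% interval -1.11 to 0.31), and -0.04 without TBBC replicate 2.

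The lipoprotein lipase list, from the enzyme to its apolipoprotein cofactors, held 12 genes, of which 8 were tested, 0 rose and 1 fell. The median was -0.39, and 7 of the 8 log2 differences were negative. Apoc2, the activating cofactor of the lipase, fell by 0.79 ± 0.11 (limma adjusted p = 0.0235), a call that was lost in 9 of 18 other settings, among them each of the 6 that leave out an array. Lpl, the lipase itself, did not pass at 0.90 ± 0.27 (adjusted p = 0.126); it is named after a look at its values.

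**Figure D2:**
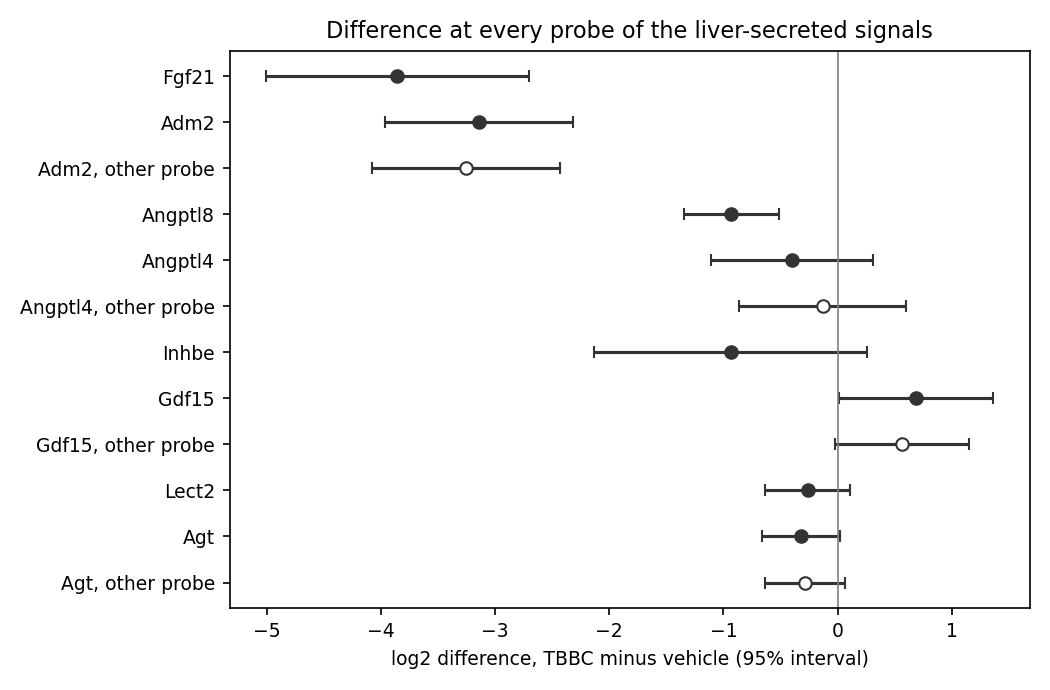
Log2 difference, TBBC minus vehicle (x axis), with its 95% interval at every retained probe of the 8 measured members; filled points are the probes that stand for the gene and open points the second probes. The intervals of Fgf21, of both Adm2 probes and of Angptl8 lie below 0, and the probes of Gdf15 lie on the other side.

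Gdf15, a stress-induced cytokine that reduces appetite through a brainstem receptor, was the member with a positive difference. In order of replicate, the vehicle arrays read -1.18, -1.89 and -1.38 in log2 signal, and those of the TBBC rats read -0.28, -1.17 and -0.94. The groups did not overlap, but TBBC replicate 2 and vehicle replicate 1 were almost equal. The log2 difference was 0.69 ± 0.28 (adjusted p = 0.212; 95% interval 0.01 to 1.36), and the second probe gave 0.56 ± 0.25. It did not pass in any of 18 other settings, where it ran from 0.41 to 0.90. Its receptor Gfral was not well above background on any array, and Ret, the co-receptor that signals with Gfral, was so on at most 1 array by any of its 5 probes.

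Inhbe encodes the beta E subunit of activin, a hepatocyte-secreted protein of the TGF-beta family. By replicate, the controls read 2.60, 1.00 and 2.53 in log2 signal, and the TBBC rats read 1.47, 1.46 and 0.40. Vehicle replicate 2 lay among the treated arrays, so the groups overlapped. The log2 difference was -0.94 ± 0.50 (adjusted p = 0.308). With 1 array left out it ran from -1.46 without vehicle replicate 2 (adjusted p = 0.138) to -0.58 without TBBC replicate 3 (adjusted p = 0.563), and it passed in none of these. Inhbe and Angptl8 had log2 differences of like size, and the standard error of Inhbe was larger (0.50 against 0.17).

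Of 13 other activin and follistatin genes, receptors and signal carriers included, 10 were tested, 0 rose and 0 fell, with a median of -0.14. Inhba, the beta A subunit, did not pass at -1.35 ± 0.34 (adjusted p = 0.0902) but did in 1 of 18 other settings. Inhbb, the beta B subunit, had a log2 difference of -0.17 ± 0.18, and its 3 retained probes ran from -0.42 to 1.82, so its value is uncertain. Inhbc, the neighbour of Inhbe in the genome, had one of -0.56 ± 0.15 (adjusted p = 0.101); it is named after a look at its values.

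Lect2 and Agt, known as abundant hepatocyte products, did not pass. The arrays of the vehicle rats, in order of replicate, read 5.10, 5.01 and 5.21 for Lect2 in log2 signal, and those of the TBBC rats read 4.57, 4.89 and 5.07, so the groups overlapped. Its log2 difference was -0.26 ± 0.16 (adjusted p = 0.356; 95% interval -0.63 to 0.11). Of 4 genes listed as its receptors, none passed: Met, the hepatocyte growth factor receptor, had a log2 difference of -0.15 ± 0.25, the endothelial receptor Tie1 one of 0.35 ± 0.42, Tek one of -0.52 ± 0.16 (adjusted p = 0.134) and the lectin Cd209a one of -0.06 ± 0.32. The sign of Met and of Cd209a turned with spike-in scaling, and the second probe of Tek gave 0.58.

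In order of replicate, the vehicle arrays read 8.62, 8.62 and 8.31 for Agt in log2 signal, and those of the TBBC rats read 8.05, 8.36 and 8.19. TBBC replicate 2 lay just above vehicle replicate 3, which made the groups overlap. The log2 difference was -0.32 ± 0.14 (adjusted p = 0.241; 95% interval -0.66 to 0.02), and the second probe gave -0.29 ± 0.15.

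Of 15 other genes of the renin-angiotensin system, 10 were tested, 0 rose and 2 fell, with a median of -0.34. Mme, the peptidase neprilysin, fell by 1.87 ± 0.25 (limma adjusted p = 0.0235), and Cma1, a mast cell chymase, by 0.85 ± 0.15 (limma adjusted p = 0.0430). These calls were lost in 7 and 12 of 18 other settings, and with 1 array left out neither gene passed unless that array was vehicle replicate 3, where 1 did. Cma1 was dim, at -3.34 to -3.79 on vehicle and -4.24 to -4.47 on TBBC arrays. Its log2 difference shrank to -0.47 with normexp, where it still passed, so the size of its fall is uncertain. The angiotensin receptor Agtr1a, singled out after its values were seen, had a log2 difference of -0.75 ± 0.16 (adjusted p = 0.0623).

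Targets of the known regulators of Fgf21 went different ways. In the integrated stress response list 5 of 20 tested genes fell and 1 rose, with a median of -0.58. Phgdh, the first enzyme of serine synthesis, fell by 2.48 ± 0.26, Atf5, a stress-induced transcription factor, by 1.69 ± 0.16, the asparagine synthetase Asns by 1.65 ± 0.24 and the stress cofactor Nupr1 by 1.47 ± 0.22 (limma adjusted p = 0.0121, 0.00803, 0.0282 and 0.0287). The other that fell was Aldh18a1 of proline synthesis, and the 1 that rose was Stbd1, a glycogen-binding protein (0.67 ± 0.12, limma adjusted p = 0.0396), named after its values were seen. With 1 array left out, 1 to 3 of the list fell, 1 without vehicle replicate 1 or TBBC replicate 2 and 2 without TBBC replicate 3; 2 fell with no filter on dim probes and 8 with array weights. Atf4 itself had a log2 difference of -0.59 ± 0.13 (adjusted p = 0.0691), Ddit3, also called CHOP, one of -0.24 ± 0.12, and Atf3 one of 0.22 ± 0.32; these 3 were singled out after their values were seen.

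Among 20 tested genes of PPAR alpha and its targets, Fgf21 and Angptl4 not counted, 4 rose and 0 fell, with a median of 0.05. Cd36, which carries fatty acids into cells, rose by 2.16 ± 0.27. Ehhadh and Acaa1b, enzymes of peroxisomal beta-oxidation, rose by 1.44 ± 0.27 and 1.18 ± 0.17 (limma adjusted p = 0.0197 for Cd36, then 0.0477 and 0.0282). With any 1 array left out, at most 1 of the list rose, and none did without vehicle replicate 1 or 2 or TBBC replicate 3, or with no filter on dim probes. Ppara, the receptor, did not pass at -0.68 ± 0.30 (adjusted p = 0.239); it is named after a look at its value.

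Genes of the carbohydrate and insulin response, of which Angptl8 is a known target, went both ways. Of its 13 tested genes 3 fell and 2 rose, with a median of -0.44. The pyruvate kinase Pklr fell by 1.24 ± 0.16 on the log2 scale (limma adjusted p = 0.0195). Its second probe gave a smaller log2 difference of -0.74, and the call was lost in 6 of 18 other settings. In contrast, the elongase Elovl6 rose by 2.65 ± 0.21 and the acetyl-CoA carboxylase Acacb by 1.73 ± 0.27 (limma adjusted p = 0.00504 and 0.0303). Only 2 of 3 controls measured Acacb above background, and it entered the test through the TBBC group alone, so the size of its rise is uncertain: with normexp it was 0.67 and did not pass (adjusted p = 0.0569). Also among those that fell was Tkfc, a kinase of fructose metabolism (-1.13 ± 0.19, limma adjusted p = 0.0379), named after its values were seen. Without TBBC replicate 1 or 3 or with no filter on dim probes none of the list fell, and only 1 gene did without vehicle replicate 1, vehicle replicate 2 or TBBC replicate 2. Elovl6 passed in all 18 other settings.

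**Figure D3:**
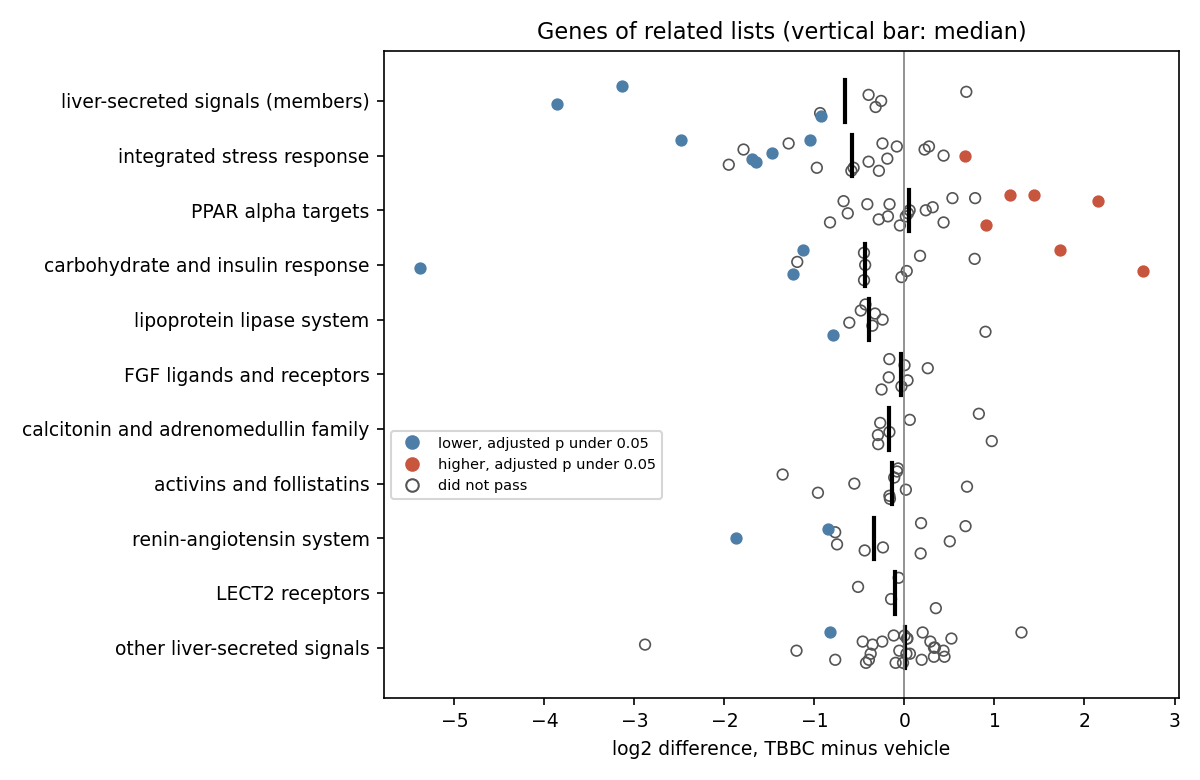
Log2 difference, TBBC minus vehicle (x axis), of each tested gene in the members and the related lists; filled points passed an adjusted p under 0.05, open points did not, and vertical bars are list medians. Fgf21 and Adm2 lie far to the left among the members, 5 genes of the integrated stress response are lower, and 4 PPAR alpha targets are higher.

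Receptors for Fgf21 did not pass where measured. Of 13 listed FGF ligands, receptors and adaptors, 7 were tested, 0 rose and 0 fell, with a median of -0.03. Fgf1, the abundant hepatic ligand of the list, had a log2 difference of -0.17 ± 0.12 and the decoy receptor Fgfrl1 one of 0.00 ± 0.15; under other scalings the sign of both turned. Fgfr1, the receptor that pairs with Klb in fat and brain, had one of 0.03 ± 0.27 and Fgfr4, the main receptor of hepatocytes, one of -0.17 ± 0.15, both singled out after their values were seen.

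Among 34 other liver-secreted signals, 29 were tested, 0 rose and 1 fell, with a median of 0.00. Ahsg, which encodes fetuin-A, fell by 0.83 ± 0.12 (limma adjusted p = 0.0292), a call lost in 8 of 18 other settings, among them each left-out array but vehicle replicate 3. The iron hormone hepcidin, Hamp, had the largest difference of that list, -2.88 ± 0.88 (adjusted p = 0.130), and did not pass. Hamp was chosen with its values already known. Igf1, the growth factor of the liver, and Selenop, the selenium carrier, had log2 differences of -0.38 ± 0.19 and -0.10 ± 0.10, and were singled out in the same way.

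Profiles most like those of the 3 members that fell were sought among 10787 other genes with a symbol and a signal above background on all 6 arrays. Likeness was the root mean square distance over the 6 arrays after each gene was centred on its own vehicle mean. That centring keeps the difference between the groups, so genes with a fall of like size lie near each other by construction. Nearness here describes a like difference, and shared regulation was not tested. Nearest to Fgf21 were the nucleoside and monoamine transporter Slc29a4 (0.45 log2 units), the member Adm2 (0.67) and the zinc transporter Slc30a3 (0.69). Slc29a4 had a log2 difference of -3.56 ± 0.37 and Slc30a3 one of -3.88 ± 0.52, but other probes of these genes differed far less: the 3 probes of Slc29a4 ran from -3.56 to -0.40 and the 2 of Slc30a3 from -3.88 to -0.67.

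Nearest to Adm2 were the olfactory receptor Olr59 (0.49), the apolipoprotein Apoa4 (0.54) and Phgdh (0.54), with Fgf21 at rank 5. Their log2 differences were -2.57 ± 0.44 for Olr59, -3.20 ± 0.42 for Apoa4 and -2.48 ± 0.26 for Phgdh. Nearest to Angptl8 were Aldh18a1 of proline synthesis (0.11), the GTPase Rragd of amino acid sensing (0.13) and the peptide hormone precursor Kiss1 (0.13). Of these Aldh18a1 passed, at -1.05 ± 0.13, with a second probe at -2.79. Rragd (-0.91 ± 0.25, adjusted p = 0.103) and Kiss1 (-0.83 ± 0.21, adjusted p = 0.0942) did not pass. These neighbours were far dimmer than Angptl8, which read 0.89 to 2.18 over the 6 arrays. Aldh18a1 read -3.09 to -1.79, Rragd -4.42 to -2.84 and Kiss1 -3.32 to -1.89, so the size of their differences is uncertain.

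**Figure D4:**
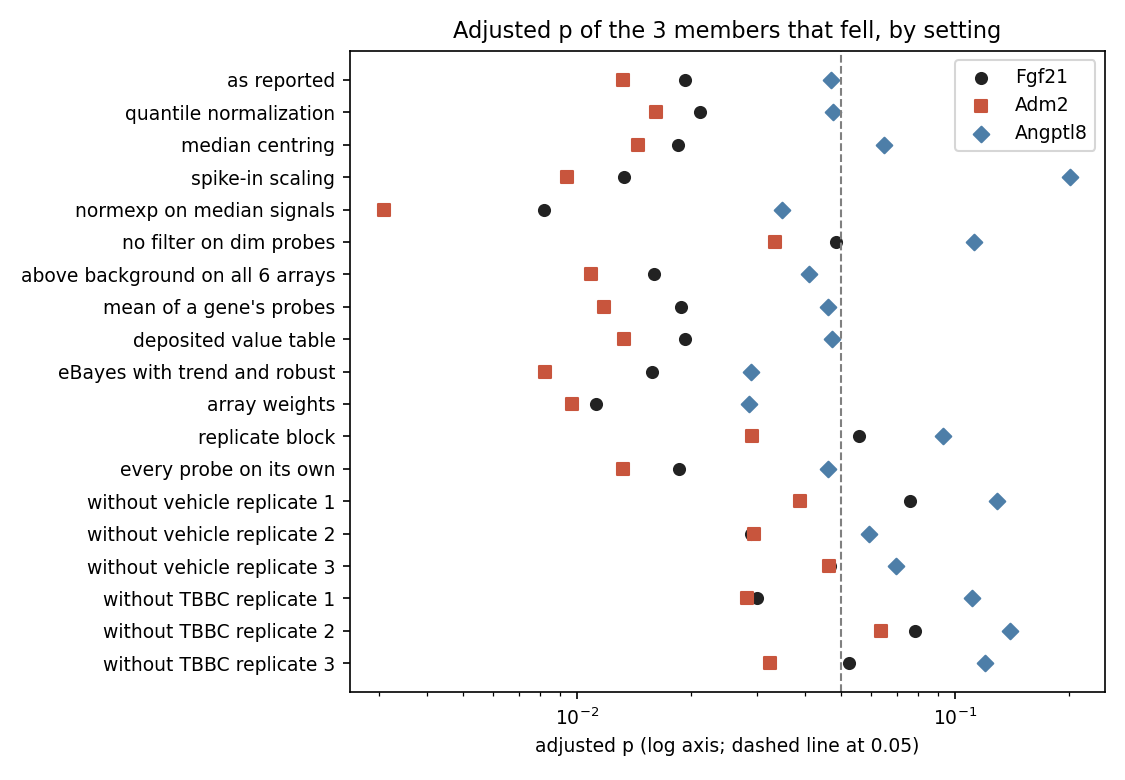
Adjusted p (x axis, log scale; dashed line at 0.05) of Fgf21, Adm2 and Angptl8 as reported and under each of 18 other settings (y axis). Adm2 stays below 0.05 except without TBBC replicate 2, Fgf21 crosses it in 4 settings, and Angptl8 crosses it in 10.

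The 75th percentile of the signal lay between 465.2 and 638.2 over the arrays, lowest on vehicle replicate 2, and 60.0% to 64.0% of 61537 probes were well above background. Correlations across features were 0.975 to 0.984 between the groups and 0.986 to 0.991 within them. All 10 hepatocyte markers were measured, and 0 passed. Of their log2 differences 6 were negative, with a median of -0.10. The groups did not overlap in 4 markers that were lower and in 2 that were higher with TBBC. Apoa1 narrowly missed the threshold, with a log2 difference of -0.9996 ± 0.19 (limma adjusted p = 0.05004). It is named after a look at its values. Of the pancreas markers, which matter because pancreas also makes Fgf21, 1 of 7 was tested (Ins1, log2 difference 0.13 ± 0.21), and Prss1, Cela1 and Gcg were above background on no array. The remaining pancreas markers were above background on some arrays, Amy2a3 on up to 4 and Cpa1 and Ins2 on up to 2, and were not tested; their part in the Fgf21 values was not tested. Of 5 adipocyte markers 2 were tested and 0 passed, and the defining Adipoq and Lep were above background on no array. Among 8 Kupffer cell, 6 T, B and NK cell and 5 sinusoidal endothelial markers tested, 0 passed. Yet the T, B and NK cell list had a lower summed signal, in multiples of the 75th percentile, on TBBC arrays (1.83 to 2.55 against 2.60 to 2.86). Of its 6 log2 differences 5 were negative, with a median of -0.31. Summed signals of the Kupffer cell and endothelial lists overlapped between the groups. The part of lymphocytes in the results above was not tested. In the stellate cell list (8 tested) Pdgfrb fell by 0.73 ± 0.14 (limma adjusted p = 0.0461), a call lost in 11 of 18 other settings. The summed signal of that list was 19.1 to 25.7 on TBBC against 19.4 to 25.9 on vehicle arrays. In the cholangiocyte list (5 tested) Epcam, an epithelial adhesion molecule, rose by 1.83 ± 0.21 (limma adjusted p = 0.0147), and the other 4 did not pass. The summed signal of the list, in multiples of the 75th percentile, was 2.77 to 4.15 on TBBC arrays against 1.13 to 1.30 on vehicle arrays. Most of it was Epcam (2.35 to 3.63 against 0.68 to 0.97), and the sum of the other 4 overlapped between the groups (0.42 to 0.52 against 0.29 to 0.63). The part of Epcam-expressing cells in the results above was not tested. In bulk RNA, fewer cells of a type and less RNA per cell cannot be told apart.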

How the data were processed

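Liver RNA of 6 rats was measured on 1-colour arrays, 3 per group, grouped by the treatment label. The deposited files hold spot intensity; per the file headers the authors extracted it with Agilent Feature Extraction 10.7.1.1 (the submitters' processing notes give 10.7); its processed signal is background-subtracted. The deposited value table holds the same intensity divided by a constant near each array's 75th percentile; its column medians were 0.1013, 0.1077 and 0.1033 (vehicle) and 0.0977, 0.0972 and 0.0974 (TBBC), it is on a linear scale, uncentred by gene, and higher where the signal is higher.

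Of 62976 spots, 1439 controls and 25 probes flagged as outliers were left out. Values were log2 of the processed signal minus log2 of the array's 75th percentile. A probe stayed in (37222 did) if every array of either group had it well above background. RefSeq accessions, matched to a GRCr8 gene table, named 28206 probes (45.8%); the array design names rn4, so coordinates are given only with the RefSeq promoters. For a gene with several probes the brightest on average stood for it, which gave 29326 features, 11235 of them named. The comparison used limma (version 3.58.1, R version 4.3.3) (two-sided, no covariate, Benjamini-Hochberg over all features, threshold 0.05); the script was tested on simulated data.

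The members, lists, naming rule and alternatives were chosen with earlier results of these data known. The rule named, per list, up to 4 genes past the threshold or else the 2 brightest, all receptors of Lect2 and Gdf15, and 3 nearest profiles per called member; some genes it covers are not reported here. The labels give 3 animals per group. The limma p-values set the difference between groups against the spread between animals within a group, moderated across features. Because each group lay on 1 slide, that spread holds no variation between slides. Alternatives were other scalings (quantile, median, spike-in), normexp with offset 50 on median pixel signals, other filters and probe rules, the deposited table, other variance models, the replicate number as a block, and leaving out each array.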

Additional observations from a re-analysis of the deposited data

How the results depend on the processing

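Fgf21, Adm2, Angptl8 and the other 5 measured members kept their direction in all 18 other settings. The count of members that passed, 3 as reported, was 2 or 3 in the other settings that kept all arrays, except with the replicate block, where it was 1 (Adm2; adjusted p = 0.0557 for Fgf21 and 0.0930 for Angptl8). It was 0 to 2 when 1 array was left out, 0 without TBBC replicate 2 and 1 without vehicle replicate 1 or TBBC replicate 3. The count of features that passed, 902 as reported, was 1593 with normexp, 194 with no filter on dim probes, 211 with the replicate block, and 120 to 355 when 1 array was left out. Same-numbered arrays did not all deviate together from their group means (correlations 0.0035, -0.022 and 0.14 for replicates 1, 2 and 3). Replicate 3 of each group correlated best with its own number, and replicates 1 and 2 did not. For that reason the numbers were not taken as pairing. With the block, 0 of the PPAR alpha list rose and 0 of the carbohydrate list fell. Spike-in scaling moved the median of all features from -0.06 to 0.15; Fgf21 was then at -3.64, Adm2 at -2.93 and Angptl8 at -0.72.

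Of 23 named genes outside the members that passed, 21 lost the call in at least 1 setting; Atf5 and Elovl6 did not. With 1 array left out 10 to 20 of the 23 lost it, 10 without vehicle replicate 3 and 20 without vehicle replicate 1. Reversals occurred in genes that did not pass: Fgf1 was 0.042 with spike-in scaling and 0.023 with the mean of probes. Fgfrl1 was -0.024 with quantile normalization, -0.073 with array weights and -0.12 to 0.090 when 1 array was left out. Ramp1 was -0.037 to 0.15 when 1 array was left out. Inhbb was 0.043 with spike-in scaling and 0.41 with the mean of its probes. Met was 0.061 with spike-in scaling, 0.037 with array weights and -0.38 to 0.091 when 1 array was left out. Tek was 0.033 with the mean of its probes. Cd209a was 0.049 with quantile normalization, 0.032 with median centring, 0.15 with spike-in scaling and -0.36 to 0.15 when 1 array was left out. Where leaving out an array ended a call, fewer arrays were tested; the other causes were not tested.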
